A study of Mus musculus with 7 samples.

Results

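The miRNAs described here are miR-193, miR-193b and miR-365, the products of a pair of small miRNA clusters of the mouse genome. They were chosen by name, as the 3 entries mmu-miR-193, mmu-miR-193b and mmu-miR-365 among the 696 mouse miRNAs on the array, because the clusters hold some of the largest differences between the label groups of the series. The differences between the label groups that are given for these 3 miRNAs chose them and are therefore a description with no test.

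Kidneys of male C57BL/6 mice, 9 to 12 weeks old, were collected at day 28, and their total RNA was hybridized to 1-colour Agilent miRNA arrays. The study compared unilateral ureteral obstruction, in which the left ureter is tied off and the kidney behind it becomes fibrotic, with a sham operation in which the ureter is exposed and not tied. Of the 7 arrays, 3 carry the group label treated (replicates 1, 3 and 4) and 4 the label non-treated (replicates 1, 2, 3 and 4), each from an unmodified C57BL/6 mouse. The deposited record does not say which label stands for the obstructed kidney. It numbers the treated arrays with an S and the non-treated arrays with a C, and its title names sham kidneys. Every direction given here is therefore by deposited label, and the arrays are called treated-label and non-treated-label arrays. The positive differences of miR-193 and miR-365 on the treated-label arrays are opposite in sign to what the study gives for obstructed over sham kidneys. The same holds for every miRNA that the study lists as changed, such as miR-21 (-2.18 here) and miR-192 (3.24 here). The reversal is thus not particular to the members. Whole kidney RNA was measured, in which fewer cells of a type and less RNA per cell cannot be told apart.

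A miRNA is cut from a hairpin RNA, and either strand of the hairpin can be kept as a short mature RNA. Bases 2 to 8 of the mature strand, the seed, carry most of its pairing with target mRNAs. MiR-193 (now called miR-193a-3p) and miR-193b are known as repressors of the survival gene MCL1, miR-193a is known in the kidney for repressing the podocyte factor WT1, and the cluster of miR-193b with miR-365 is known for its part in brown fat cells. Each cluster pairs a miR-193 hairpin with a miR-365 hairpin. In RefSeq's GRCm38.p6 table, Mir193a lies at chr11:79711969-79712034 and Mir365-2 at chr11:79726400-79726511, both on the + strand with 14365 bases between them. Mir193b lies at chr16:13449523-13449601 and Mir365-1 at chr16:13453840-13453926, both on the + strand with 4238 bases between them and both inside the long noncoding genes Gm32817 and Gm53058. No other RefSeq gene of that table spans the chromosome 11 hairpins.

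The hairpins are shown because they tell which array signal can be placed at which locus. The mature 3′ arm, the strand that the members' names stand for, is in capitals.
Mir193a: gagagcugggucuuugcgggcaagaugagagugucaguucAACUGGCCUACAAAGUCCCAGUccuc
Mir365-2: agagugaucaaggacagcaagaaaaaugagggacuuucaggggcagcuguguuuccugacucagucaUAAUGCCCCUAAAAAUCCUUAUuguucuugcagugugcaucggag
Mir193b: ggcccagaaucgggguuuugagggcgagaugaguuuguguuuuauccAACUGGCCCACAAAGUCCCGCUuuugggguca
Mir365-1: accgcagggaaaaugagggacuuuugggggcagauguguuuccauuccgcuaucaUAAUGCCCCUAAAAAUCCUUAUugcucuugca

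The mature strands are shown next, 5′ to 3′ with the seed in capitals, because they sort the members into a pair of families.
miR-193 (miR-193a-3p): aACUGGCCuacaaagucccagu
miR-193b (miR-193b-3p): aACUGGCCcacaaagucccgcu
miR-365 (miR-365-3p): uAAUGCCCcuaaaaauccuuau
miR-193* (miR-193a-5p): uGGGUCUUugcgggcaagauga

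MiR-193 and miR-193b shared their seed and 19 of 22 bases. Counted from 1 at the 5′ end, with the base of miR-193 first, they differed by U9C, A20G and G21C. Among 1679 mature mouse names in RefSeq's table, these were the only 2 with this seed, and miR-365 was the only 1 with its own. The mature miR-365 was the same from both hairpins, so its signal cannot be assigned to chromosome 11 or 16. MiR-193 and miR-193b each came from 1 locus. Probe sequences were not used here, and whether probes for miR-193 also bind miR-193b was not tested.

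All 3 members were detected by Agilent's software on all 7 arrays. The number of miRNAs detected lay between 232 and 282 on the non-treated-label arrays and between 193 and 214 on the treated-label arrays. Before scaling, the log2 signals of the 186 miRNAs detected everywhere averaged 7.24 ± 0.40 (SD, n = 4) on the non-treated-label arrays and 6.09 ± 0.32 (SD, n = 3) on the treated-label arrays, a difference that the scaling removes. The spike-in controls overlapped, from 10.20 to 10.67 on the non-treated-label arrays and from 10.05 to 10.58 on the treated-label arrays. Whether the removed difference is technical was not tested. Non-treated replicate 3 was the dimmest of its group. After scaling, the lowest signals were raised to a floor of 1.32 on the log2 scale. Of 236 miRNAs tested, 62 (26.3%) were higher and 82 (34.7%) lower on the treated-label arrays at a limma adjusted p below 0.01, a split that other scalings moved as far as 8 higher and 167 lower, without scaling, or 76 higher and 61 lower, with the 75th percentile of all miRNAs. Scaling to the mean of all miRNAs, the setting nearest to the wording of the study's methods, gave 37 higher and 124 lower.

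MiR-193, from chromosome 11, was brighter on each treated-label array than on any non-treated-label array. Before scaling, its summed signal was 107.0, 131.0, 52.5 and 101.7 on non-treated replicates 1, 2, 3 and 4, and 192, 229 and 166 on treated replicates 1, 3 and 4. As scaled log2 signals these were 6.09, 6.26, 5.81 and 6.01 on the non-treated-label arrays and 8.29, 8.16 and 8.34 on the treated-label arrays. The label groups did not overlap on either scale, and after scaling the lowest treated array lay 1.90 above the highest non-treated array. The means were 6.04 ± 0.19 (SD, n = 4) and 8.26 ± 0.091 (SD, n = 3), a log2 difference of 2.22 (standard error 0.12) or a fold of 4.66. This was rank 6 of the 236 miRNAs tested. The difference was 1.71 with the mean of all miRNAs, 1.26 with spike-in scaling, 1.06 without scaling and 1.10 with normexp, a background correction whose offset shrinks low signals.

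**Figure D1:**
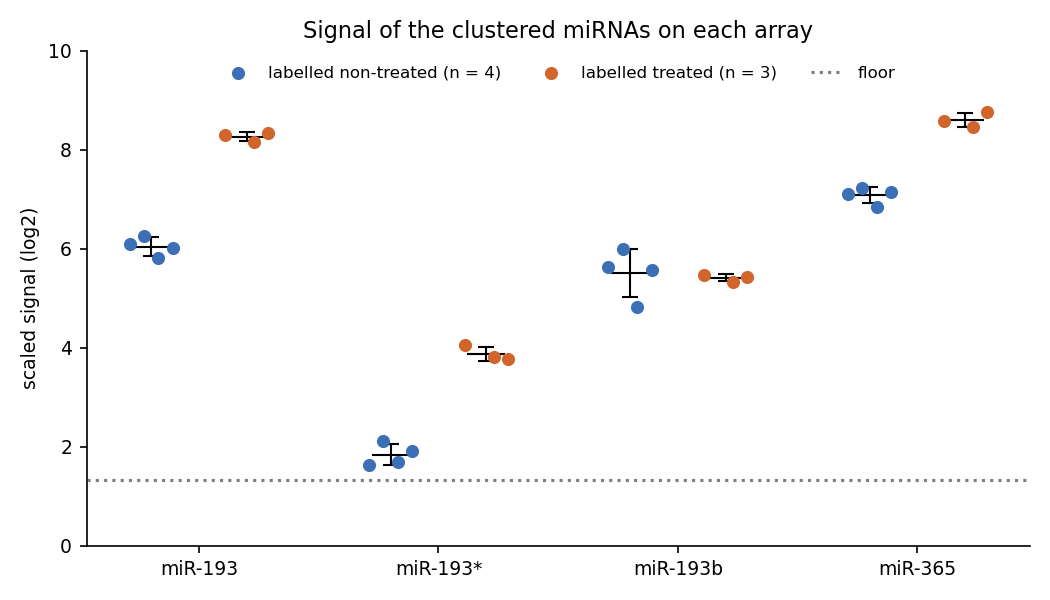
Scaled log2 signal (vertical axis) of miR-193, miR-193*, miR-193b and miR-365 on each array; points are arrays, bars the mean and SD of a label group, and the dotted line the floor at 1.32. The groups are apart for miR-193, miR-193* and miR-365, and for miR-193b the 3 treated-label arrays lie inside the range of the 4 non-treated-label arrays.

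The other strand of the same hairpin, miR-193*, was the 1 other product of the member hairpins found on the array, and the rule did not use it. Its scaled log2 signals were 1.64, 2.11, 1.70 and 1.91 on the non-treated-label arrays and 4.05, 3.81 and 3.78 on the treated-label arrays. On this scale every treated-label array was above every non-treated-label array. Before scaling the label groups overlapped, with a summed signal of 7.39 on non-treated replicate 2 and 7.07 on treated replicate 4. The log2 difference was 2.04 (standard error 0.13), and 0.55 with normexp. MiR-193* was tested only because it was detected on all treated-label arrays, where it was higher. It also shares its hairpin with miR-193, which was chosen for this difference. That it passed the threshold is therefore no support, and its difference is a description with no test. Of the 236 miRNAs tested, 61% passed in either direction and 26.3% passed as higher. The signals of the non-treated-label arrays lay close to the floor: 2 of their 80 spots were well above background, against 13 of 60 on the treated-label arrays, and non-treated replicate 3 was not called detected. The size of this difference is therefore uncertain, at 2.04 with a floor 4 times lower and 1.56 with a floor 2 times higher. Of its 4 probes, 2 were at the floor on every array, and without scaling between arrays the difference was 0.83 and no longer past the threshold.

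MiR-193b, from chromosome 16, showed no such separation of the label groups. Its summed signal before scaling was 77.5, 108.9, 26.6 and 74.6 on non-treated replicates 1, 2, 3 and 4, and 27.2, 32.2 and 22.3 on treated replicates 1, 3 and 4. The scaled log2 signals were 5.63, 5.99, 4.83 and 5.56 on the non-treated-label arrays and 5.47, 5.33 and 5.44 on the treated-label arrays. The treated arrays fell within the span of the non-treated arrays, which ran over 1.16, against 0.13 among the treated arrays. The means were 5.50 ± 0.49 (SD, n = 4) and 5.41 ± 0.069 (SD, n = 3), with a log2 difference of -0.092 (standard error 0.24), rank 114 of 236. Without non-treated replicate 3, its lowest array and the dimmest of its group, the difference was -0.34. Its sign turned with the scaling, from -1.25 without scaling and -0.60 with the mean of all miRNAs to 0.16 with the 75th percentile of all miRNAs, while the median of all miRNAs tested moved from -1.22 to 0.12 under the same settings.

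MiR-365, whose sequence both clusters share, lay between the other members in the size of its difference. Before scaling its summed signal was 218, 256, 108 and 224 on non-treated replicates 1, 2, 3 and 4, and 234, 283 and 223 on treated replicates 1, 3 and 4, so the label groups overlapped. The scaled log2 signals were 7.12, 7.23, 6.85 and 7.15 on the non-treated-label arrays and 8.57, 8.47 and 8.76 on the treated-label arrays. On this scale the label groups did not overlap and were 1.24 apart at their nearest arrays. The means were 7.09 ± 0.17 (SD, n = 4) and 8.60 ± 0.15 (SD, n = 3), a log2 difference of 1.51 (standard error 0.12) or a fold of 2.85, rank 21 of 236. The difference was 1.004 with the mean of all miRNAs, 0.56 with spike-in scaling, 0.36 without scaling and 0.75 with normexp. The label groups thus did not overlap for 2 of the 3 members, both higher on the treated-label arrays, where 30.5% of all miRNAs tested were apart in that direction and 71.6% in either direction.

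**Figure D2:**
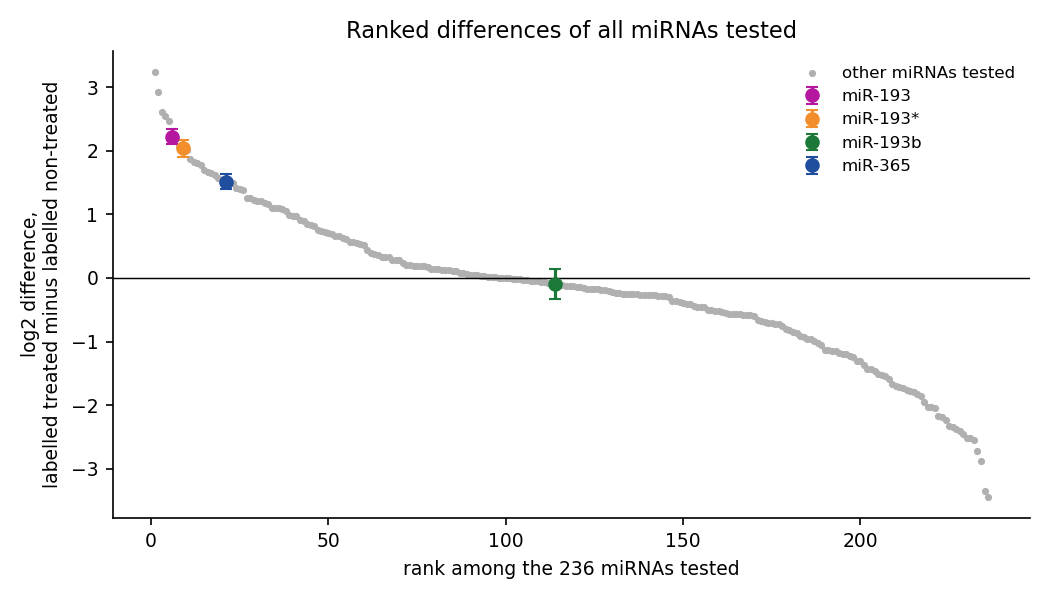
Log2 difference between the label groups (vertical axis) of the 236 miRNAs tested, in falling order (horizontal axis), with miR-193, miR-193*, miR-193b and miR-365 in colour and bars for their standard errors. MiR-193 stands at rank 6, miR-193* at rank 9, miR-365 at rank 21, and miR-193b at rank 114.

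Each member was read by 2 probes of 10 spots per array, and no spot of theirs was saturated. The brighter probe of miR-193 gave 90.4% of its signal summed over the arrays, with a log2 difference of 2.22, and the dimmer probe gave 2.23. For miR-365 the probes differed by 1.56 and 1.48 between the label groups. The probes of miR-193b gave -0.070 and -0.10. The probes of a miRNA thus gave nearly the same difference although their brightness differed. After scaling, the label groups did not overlap for both probes of miR-193 and of miR-365, where 30.5% of all miRNAs tested were apart in that direction. Before scaling they overlapped for both probes of miR-365. Non-treated replicate 2 gave 108.1 and 148.2 there, and treated replicate 4 gave 92.4 and 130.2. Over the spots of a probe on an array, the coefficient of variation had a median over probe and array between 12.9% and 18.6% for the 6 probes. All 59 spots of miR-193 in use on the treated-label arrays and 74 of 79 on the non-treated-label arrays were well above background.

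**Figure D3:**
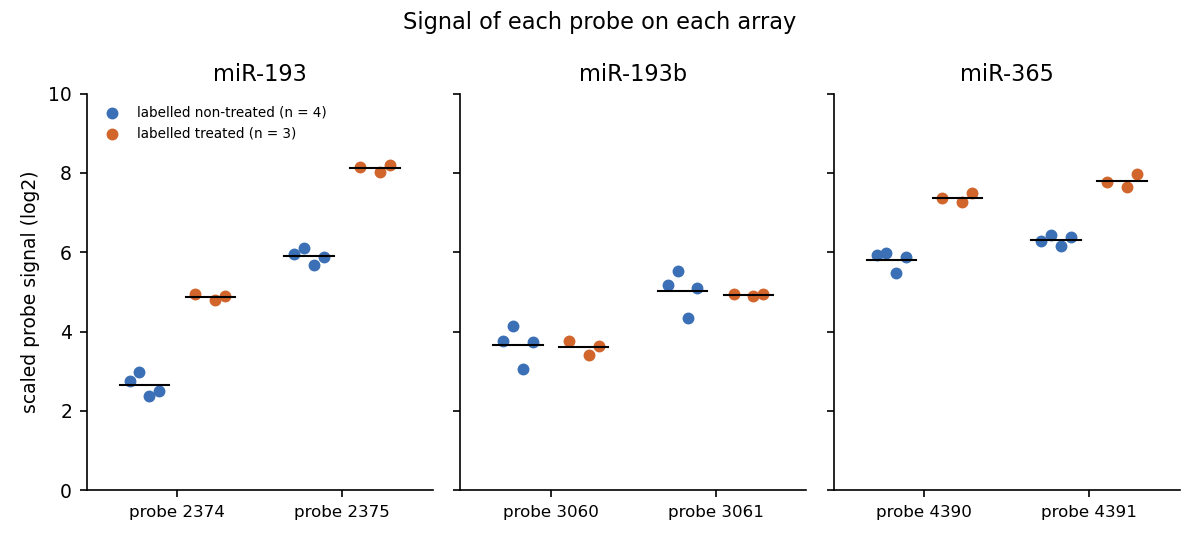
Scaled log2 signal (vertical axis) of each of the 2 probes of miR-193, miR-193b and miR-365; points are arrays and lines the mean of a label group. Both probes of miR-193 and both of miR-365 are higher on each treated-label array, and both probes of miR-193b overlap between the label groups.

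A difference between the log2 signals of a pair of members on the same array is not changed by dividing all signals of that array by 1 factor, though quantile normalization and background correction can change it. Its level reflects probe brightness and only its change between the label groups is of use. MiR-193 minus miR-193b was 0.47, 0.27, 0.98 and 0.45 on the non-treated-label arrays and 2.83, 2.83 and 2.90 on the treated-label arrays. Relative to the sister with the same seed, miR-193 was therefore higher by 2.31 (standard error 0.18) on the treated-label arrays, and the label groups did not overlap. MiR-365 minus miR-193 was 1.02, 0.97, 1.04 and 1.14 on the non-treated-label arrays and 0.28, 0.31 and 0.42 on the treated-label arrays. Against miR-193, its partner in the chromosome 11 cluster, miR-365 was lower by a log2 difference of -0.71 (standard error 0.055). MiR-365 minus miR-193b, its partner on chromosome 16, was 1.49, 1.24, 2.02 and 1.59 on the non-treated-label arrays and 3.11, 3.13 and 3.32 on the treated-label arrays, a change of 1.60 (standard error 0.20). With quantile normalization the 3 changes were 2.04, -0.72 and 1.32, and with normexp they were 0.96, -0.35 and 0.61. These 3 changes are built from the differences that chose the members and are given with no test.

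**Figure D4:**
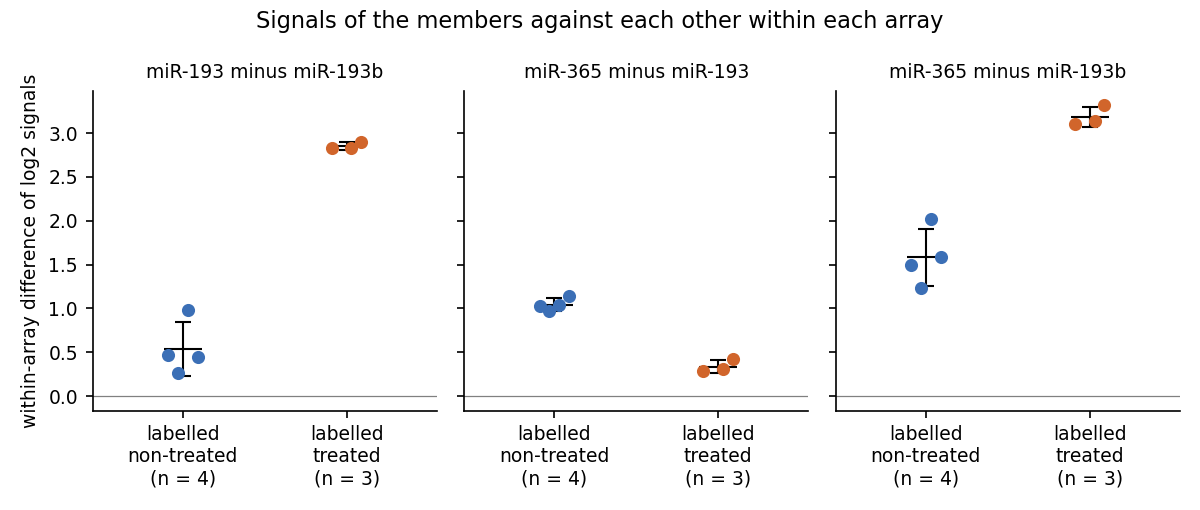
Difference of the log2 signals of a pair of members on the same array (vertical axis), for miR-193 minus miR-193b, miR-365 minus miR-193 and miR-365 minus miR-193b; points are arrays and bars the mean and SD of a label group. The label groups are apart in each of the 3 plots, by 2.31, -0.71 and 1.60 on average.

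Within a label group, an outcome that the rule did not use, the members ranked the arrays in nearly the same order. Non-treated replicate 2 was the highest and non-treated replicate 3 the lowest of its group for each of the 3 members. The deviations of replicate 3 from the group mean were -0.23 for miR-193, -0.24 for miR-365 and -0.67 for miR-193b. Among the treated-label arrays, replicate 3 was the lowest for each member, by between -0.13 and -0.078 from the group mean. The arrays share 1 scaling, which moves all members of an array together. Before scaling, non-treated replicate 2 was also the brightest of its group (7.52) and non-treated replicate 3 the dimmest (6.65). Treated replicate 3 was the brightest of its group (6.42). How many of all miRNAs follow the same order was not counted, so the order cannot be called particular to the members. MiR-365 minus miR-193 had an SD of 0.072 (n = 4) on the non-treated-label arrays and 0.073 (n = 3) on the treated-label arrays, smaller than the SD of either miRNA alone in the same group. MiR-193 minus miR-193b had an SD of 0.31 (n = 4) on the non-treated-label arrays, between those of the single miRNAs, and of 0.042 (n = 3) on the treated-label arrays, smaller than that of either. A factor shared by all signals of an array drops out of such differences. Other pairs of miRNAs were not looked at, so these SDs cannot be called particular to the members.

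Likeness of pattern was measured as the root mean square difference of log2 signals, each centred on its mean, over the 7 arrays, among 183 other miRNAs detected on all arrays. For miRNAs whose label groups lie apart, this measure mostly restates the difference between the groups that chose the members, so it is a description and no further evidence. The miRNAs nearest to miR-193 were miR-30e (0.19), miR-378 (0.19) and miR-2146 (0.23), all higher on the treated-label arrays. MiR-30e is abundant in kidney tubules, and miR-378 lies in an intron of the gene of the metabolic coactivator PGC-1β. Nearest to miR-365 were miR-107 (0.071), miR-29c (0.10) and miR-185 (0.14). MiR-107 lies in a pantothenate kinase gene and miR-29c is known as a repressor of collagens. Nearest to miR-193b were miR-425 (0.21), miR-203 (0.23) and miR-7a (0.24), with log2 differences of 0.13, 0.17 and 0.14 that did not pass the threshold and whose signs turned under other scalings. Between members, miR-193 and miR-365 were 0.36 apart, miR-193b and miR-365 0.82, and miR-193 and miR-193b 1.16. Of the other miRNAs, 8 lay nearer to miR-193 and 26 nearer to miR-365 than miR-193 and miR-365 lay to each other.

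Brown and white fat cell differentiation is the setting in which the chromosome 16 cluster is best known, and 20 other miRNAs with a described role there were listed. Of 19 tested, 6 were higher on the treated-label arrays, 6 were lower and 7 did not pass, with a median log2 difference of -0.0033 against -0.13 for all miRNAs tested. The share that passed was near the background of 61%. MiR-378 (1.87) and its other strand miR-378* (1.78) were higher. MiR-155 (-1.82), which is also in the leukocyte list, was lower. MiR-182 was detected on all 4 non-treated-label arrays and on no treated-label array. In the main setting it was at least 1.97-fold lower on the treated-label arrays, with the lowest detected signals of those arrays as the limit. This is a description with no test, as miR-182 was tested only through the non-treated-label arrays, where it was higher. With normexp miR-155 was at -0.14 and did not pass and miR-182 turned to 0.18, and with the authors' table of processed values miR-182 was at -0.27 and did not pass. MiR-143 is shared with the fibroblast list.

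Most tubule markers and both red blood cell markers moved with miR-193 and miR-365, and the part of cell types in these differences was not tested. Of 14 listed tubule miRNAs, 13 were detected on all arrays and miR-215 on none, and 10 of 13 tested were higher on the treated-label arrays, 1 (miR-204, at -0.56) was lower and 2 did not pass, with a median of 0.97, where 26.3% of all miRNAs tested were higher and 34.7% lower. The largest were miR-192 (3.24), miR-194 (2.92), miR-30e (2.07) and miR-30e* (1.81). The summed tubule signal ran from 11.93 to 12.21 (log2) on the non-treated-label arrays and from 13.30 to 13.35 on the treated-label arrays. Of the red blood cell miRNAs, both on the array were higher on the treated-label arrays, miR-144 by 2.61 and miR-451 by 1.65, and their summed signal ran from 10.08 to 11.19 on the non-treated-label arrays and from 12.17 to 12.32 on the treated-label arrays.

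Leukocyte and fibroblast markers went the other way, the direction in which 34.7% of all miRNAs tested passed. That background was 167 of 236 without scaling and 170 of 236 with spike-in scaling. All 7 leukocyte miRNAs were lower on the treated-label arrays (median -1.95), led by miR-342-3p (-2.52), miR-223 (-2.33), miR-146a (-2.02) and miR-142-3p (-1.95), and their summed signal ran from 10.62 to 10.96 on the non-treated-label arrays and from 8.59 to 8.65 on the treated-label arrays. All 7 fibroblast and smooth muscle miRNAs on the array were lower (median -2.24), led by miR-199a-3p (-2.55), miR-214 (-2.51), miR-199a-5p (-2.41) and miR-199b* (-2.24). Their summed signal ran from 13.77 to 14.20 on the non-treated-label arrays and from 11.84 to 11.87 on the treated-label arrays. Most of this sum was miR-21, with means of 13.75 on the non-treated-label and 11.56 on the treated-label arrays. The means of miR-199a-3p were 10.74 and 8.19, so the sum says little about the other listed miRNAs. The endothelial strands miR-126-3p and miR-126-5p did not pass, at -0.0018 and 0.076. The log2 difference of miR-193b, at -0.092, was smaller than the SD of 0.49 among its own non-treated-label arrays.

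**Figure D5:**
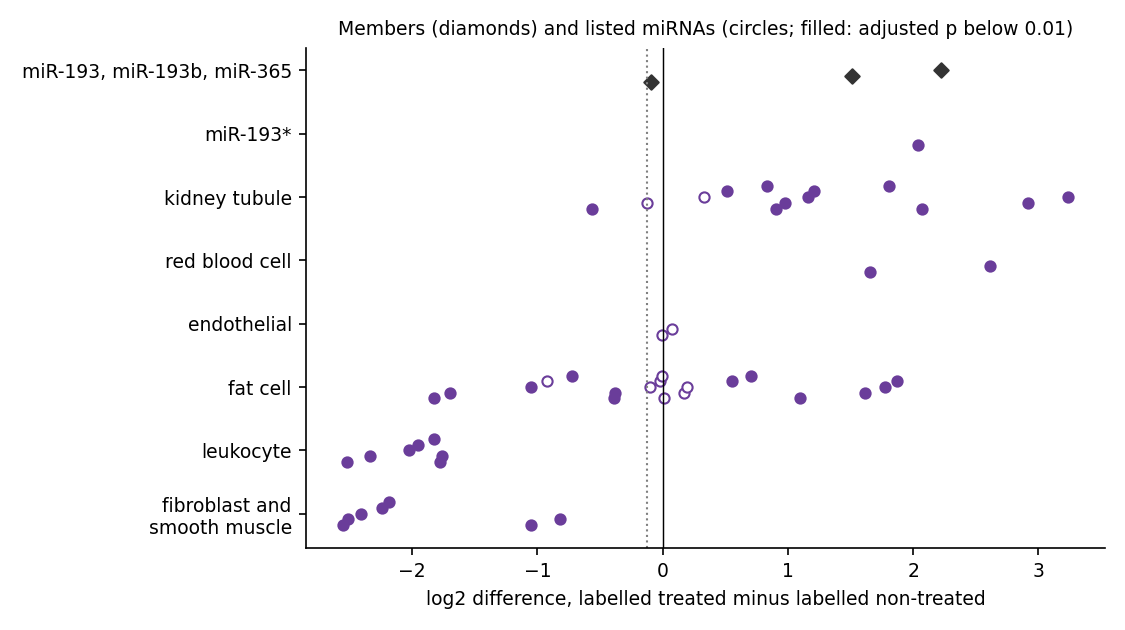
Log2 difference between the label groups (horizontal axis) of the members (diamonds) and of each tested miRNA of the lists (circles, filled where the limma adjusted p was below 0.01); the dotted line is the median of all miRNAs tested, at -0.13. MiR-193 and miR-365 lie on the side of the tubule and red blood cell miRNAs, and miR-193b lies near 0. The circle of miR-182 stands for a signal not detected on the treated-label arrays.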

How the data were processed

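Agilent Feature Extraction 10.7.3.1 made the files, per the labels, and the authors deposited its spot intensity values, background-subtracted and not normalized between arrays, with error estimates and detection flags. Each array holds 13920 miRNA spots for 1937 probes. All arrays share 1 slide and 1 scan, so neither could serve as a batch. The deposited record names an extraction kit that the methods give for fixed human tissue, and which was used here is not settled. A further table of the authors holds, per probe, the intensity of its first spot on 6 arrays (equal to within 1e-05 of the value) and, on treated replicate 4, that spot's error estimate.

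From these, spots without outlier flags were averaged per probe and summed per miRNA. Signals were scaled so that the 186 miRNAs detected on all arrays had the same average log2 signal. The methods name the mean of each array, and the mean of all miRNAs was an alternative. They were then raised to a floor of 2.49 (the median over arrays of the lowest detected signal) and log2 transformed. The labels were compared with limma 3.58.1 (R 4.3.3) over 236 miRNAs, each detected on all arrays of a label, at a Benjamini-Hochberg adjusted p below 0.01. These steps were tested on simulated data: of 40 changes of 1.5 (log2) among 236 miRNAs, 39 were recovered, with 0 false calls. In the array data 144 of 236 miRNAs passed, and how the steps do with that many changes was not tested. No array held the same values as another. Pairs of arrays differed by 1.34, 1.74 and 2.01 times the spread expected from their spots among the treated-label arrays. Among the non-treated-label arrays this ran from 2.60 to 3.45. The spread of spots lies within an array, so these values cannot exclude that the same RNA was hybridized more than once. The labels list the arrays as separate samples, and precision is limited by their number.

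Named are the members, other strands and seed sharers on the array, the 3 miRNAs nearest each member in pattern, and up to 4 of each list with the largest differences past the threshold. The members and lists were chosen with earlier results of these data known. MiR-193b*, the other strands of miR-365, miR-199b and miR-486 were listed and not matched on the array. Alternatives covered scaling, signal, background, floor, probes, filter, test, replicate number and each array left out. Sequences and coordinates are RefSeq's (GRCm38.p6). All 4 hairpins were matched by name. The array header names mm9.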

Additional observations from a re-analysis of the deposited data

Results flagged for a closer look

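In total signal and in spike-in signal, non-treated replicate 3 lay far from the rest of its group. Its mean log2 signal before scaling was 6.65, against 7.40 to 7.52 on the other non-treated-label arrays, and its gap to the nearest of them was 0.859 of the group's range. The spike-in controls averaged 10.20 (log2) there and 10.60 to 10.67 elsewhere in the group, a gap of 0.843 of the range. Of 9 groups of 4 values checked, 2 passed the limit, where chance passes 5%. None of the log2 signals of miR-193, miR-193*, miR-193b or miR-365 and none of their within-array differences did. Without this array the log2 difference of miR-193b was -0.34.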

How the results depend on the processing

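MiR-193 and miR-365 were higher on the treated-label arrays under all 21 alternatives tried, from 1.06 to 2.47 and from 0.36 to 1.76. The log2 differences of miR-193, miR-365 and miR-193b were 1.97, 1.27 and -0.34 after scaling to the 75th percentile of the 186 miRNAs detected everywhere, 1.71, 1.004 and -0.60 with the mean of all miRNAs, 2.47, 1.76 and 0.16 with the 75th percentile of all miRNAs, 1.26, 0.56 and -1.05 with spike-in scaling, 1.06, 0.36 and -1.25 without scaling, 1.10, 0.75 and 0.14 with normexp (an offset of 50, which shrinks low signals) and 1.99, 1.30 and -0.055 with the deposited table. With each array left out they ran from 2.12 to 2.29, from 1.41 to 1.58 and from -0.34 to 0.072. MiR-193 minus miR-193b was 2.04 with quantile normalization, 0.96 with normexp, 2.04 with the deposited table and 2.05 with that table without its column of error estimates (added after seeing the data). MiR-365 minus miR-193b was 1.32, 0.61, 1.36 and 1.34 in the same settings, and miR-365 minus miR-193 was -0.35 with normexp. The cause of these moves was not tested. The number of miRNAs changed was 144, against 61 with the deposited table, 94 without its column of error estimates, 87 with a log2 difference of at least 1 required, and 126 to 157 with each array left out. Of listed miRNAs 38 passed, and 24 with the deposited table.

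The signs of miR-425, miR-203 and miR-7a turned to -0.11, -0.080 and -0.10 with the 75th percentile of those 186 miRNAs, -0.37, -0.34 and -0.36 with the mean of all miRNAs, -0.82, -0.79 and -0.81 with spike-in scaling and -1.02, -0.99 and -1.01 without scaling. MiR-425 was also at -0.016 with the deposited table, miR-7a at -0.16 with that table without its column of error estimates, and without non-treated replicate 3 miR-425 and miR-203 were at -0.014 and -0.10, the lowest values with an array left out, against highest values of 0.19 and 0.31. MiR-182 turned to 0.18 with normexp. Of the named miRNAs past the threshold, miR-107, miR-29c and miR-451 no longer passed with spike-in scaling or without scaling, and miR-193*, miR-378, miR-378*, miR-2146, miR-185 and miR-30e* no longer passed without scaling. MiR-155 did not pass with normexp (-0.14), nor miR-182 with the deposited table (-0.27).

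Replicate numbers were shared by 3 pairs of arrays, whose deviations correlated at 0.049, -0.089 and 0.14 across miRNAs. No pairing was seen, and 3 pairs are too few to exclude one. With the number as a block, the differences of miR-193, miR-193b and miR-365 were 2.29, 0.072 and 1.56, and 126 miRNAs passed. The arrays have no depth in reads. Signal over background limits miR-193* on the non-treated-label arrays.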

Other observations

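The authors' table of processed values had column medians of 0.420, 0.509, 0.447 and 0.321 on non-treated replicates 1, 2, 3 and 4, 0.311 and 0.263 on treated replicates 1 and 3, and 1.001 on treated replicate 4, whose column holds error estimates. Its columns are on the linear scale of the scanner files, with no centring.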
